A study of Mus musculus with 6 samples.

Results

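Cytosolic chaperones were examined as a set of 78 genes among the 21604 gene symbols measured by RNA sequencing. The rule reads gene symbols alone. It takes the heat shock protein genes Hspa, Hspb, Hsph and Hsp90a, the J-protein genes Dnaja, Dnajb and Dnajc, the chaperonin genes Cct and Tcp1, the Bag genes 1 to 6, Cryab, the HSP90 cochaperones Ahsa1, Ahsa2, Fkbp4, Fkbp5 and Stip1, and the transcription factors Hsf1 and Hsf2. The endoplasmic reticulum (ER) and mitochondrial members Hspa5, Hspa9, Dnajb9, Dnajb11, Dnajc3 and Dnajc10 were left out by the same rule. The rule still admits 15 genes, such as Dnaja3 and Dnajc19 of mitochondria and Dnajb12 and Dnajc1 of the ER membrane, whose proteins are placed outside the cytosol and nucleus. It also admits genes that are no chaperones in the strict sense, such as Hsf1, Hsf2 and Hspb11, so the name of the set is a loose one.

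The cells were RAW 264.7, a mouse macrophage-like line labelled as bone marrow macrophage and wild type. The 3 samples called LPS plus PE-CUR below received lipopolysaccharide (LPS, from the outer membrane of bacteria, which macrophages sense through TLR4) at 100 ng/mL together with PE-CUR at 2 mg/mL, for 24 h. By the name of the study, curcumin was carried in Pickering emulsions, which are droplets coated with solid particles. The other 3, called LPS, carry LPS alone as their treatment label, and a single protocol text covers both groups. All 6 samples thus carry LPS, and the labels name no untreated cells, no free curcumin and no emulsion without curcumin. Nothing in them says that replicates came from separate cultures, so p-values here measure only how the sequenced samples vary, which may be technical variation.

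Chaperones bind proteins that are unfolded or only partly folded and release them in cycles driven by ATP. HSP70 proteins hold short hydrophobic stretches, J-proteins bring clients to HSP70 and start its ATP hydrolysis, and HSP110 and BAG proteins release the nucleotide so that the client can leave. HSP90 acts later, on kinases and receptors that are nearly folded, and is known to keep several kinases of inflammatory signalling active, whereas the ring-shaped chaperonin TRiC encloses actin, tubulin and other clients. Small heat shock proteins hold unfolded clients without ATP. HSF1 is the main transcription factor of the heat shock response and binds inverted repeats of GAA in the promoters of inducible chaperone genes.

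Total counts were 28530750 to 35276533 per library. All 11 macrophage markers looked up had counts, and 2 were higher in LPS plus PE-CUR, 3 lower and 6 did not pass. CPM below are counts scaled to a common library total, by TMM for single genes and by library totals for sums of markers. Higher were Cd14 (1559 CPM in LPS plus PE-CUR and 1179 CPM in LPS) and Csf1r (1201 CPM in LPS plus PE-CUR and 865 CPM in LPS). Lower were Lyz2 (4835 CPM in LPS plus PE-CUR and 6421 CPM in LPS), Itgam (627 CPM in LPS plus PE-CUR and 753 CPM in LPS) and Adgre1 (26.8 CPM in LPS plus PE-CUR and 85.2 CPM in LPS), and Mrc1 had no more than 1.03 CPM in any library. The 11 markers together took 9168 to 10231 CPM in LPS plus PE-CUR and 11023 to 11638 CPM in LPS, and Lyz2 gave more of that sum than any other marker. Markers of striated muscle, a tissue rich in Cryab and several small heat shock proteins, summed to 2.14 to 2.79 CPM in LPS plus PE-CUR and 4.82 to 4.94 CPM in LPS (11 of 15 looked up were in the table). The 6 fibroblast markers present in the table summed to 12.4 CPM in LPS plus PE-CUR replicate 2, mainly Col1a1 and Col1a2, and to at most 2.41 CPM in the other 5 libraries. The 12 hepatocyte markers summed to 4.12, 3.86 and 104 CPM in LPS plus PE-CUR replicates 1 to 3 and to 82.9 to 100.5 CPM in the LPS libraries, and no more than 2.29 CPM was found for the erythroid, lymphocyte or male germ cell markers. The part of these transcripts in the results below was not tested.

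All 8 tested genes of the chaperonin TRiC were higher in LPS plus PE-CUR, as were Hsp90ab1 and 4 of 5 HSP90 cochaperones in the set. Of the HSP70 genes 2 of 6 and of the HSP110 genes 1 of 3 were higher (33.3% each, near the 30.8% of all tested genes). J-proteins were divided, and Hspb8, Dnajb2 and Dnajb4 had the largest falls of the set. The 78 genes together took 1.19%, 1.18% and 1.18% of all counts in the LPS plus PE-CUR libraries, against 0.893%, 0.892% and 0.861% in the LPS libraries. Of the 78, 70 had enough counts for the test (edgeR quasi-likelihood test of 3 against 3 libraries, Benjamini-Hochberg adjustment over all 13014 tested genes, two-sided, threshold 0.05). Higher in LPS plus PE-CUR were 34 of the 70 (48.6%), where 30.8% of all tested genes were, and lower were 13 (18.6%), where 32.7% of all tested genes were. In either direction 47 members (67.1%) passed, beside 63.4% of all tested genes. The median log2 fold change, LPS plus PE-CUR over LPS, was 0.20 over the tested members and -0.03 over all tested genes. In bulk RNA, a change in the number of cells of a kind and in RNA per cell cannot be told apart.

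Most changes were of moderate size. At least 2-fold higher were 3 members (Cryab, Dnajc9 and Fkbp4), where 6.37% of all tested genes were, and at least 2-fold lower were 2 (Hspb8 and Dnajb2), where 11.5% were. No value of one group lay within the range of the other in 48 of the 70 tested members, against 69.0% of all tested genes. This held for 35 members that were higher, where 33.3% of all tested genes were, and for 13 that were lower, where 35.7% were. Of the 18 tested members with a mean of at least 50 FPKM (fragments scaled by gene length and library total, a level per length) over all 6 libraries, 17 were higher and 0 lower, and the exception was Hsp90aa1. Abundant genes leaned higher in general, since of all 1292 tested genes at that level 51.3% were higher and 23.4% lower. Of the 52 members below that level, 17 were higher, 13 lower and 22 did not pass, beside 28.5% higher and 33.7% lower of all 11722 tested genes below it. Leaving out the 15 members placed outside the cytosol and nucleus gave 32 higher and 7 lower of 55. Those 15 gave 2 higher (13.3%), 6 lower (40%) and 7 that did not pass, beside 30.8% higher and 32.7% lower of all tested genes. With DESeq2, with median-ratio scaling or with any 1 library left out, 5 of the 15 were lower, and limma on log2(FPKM + 1) gave 7.

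**Figure D1:**
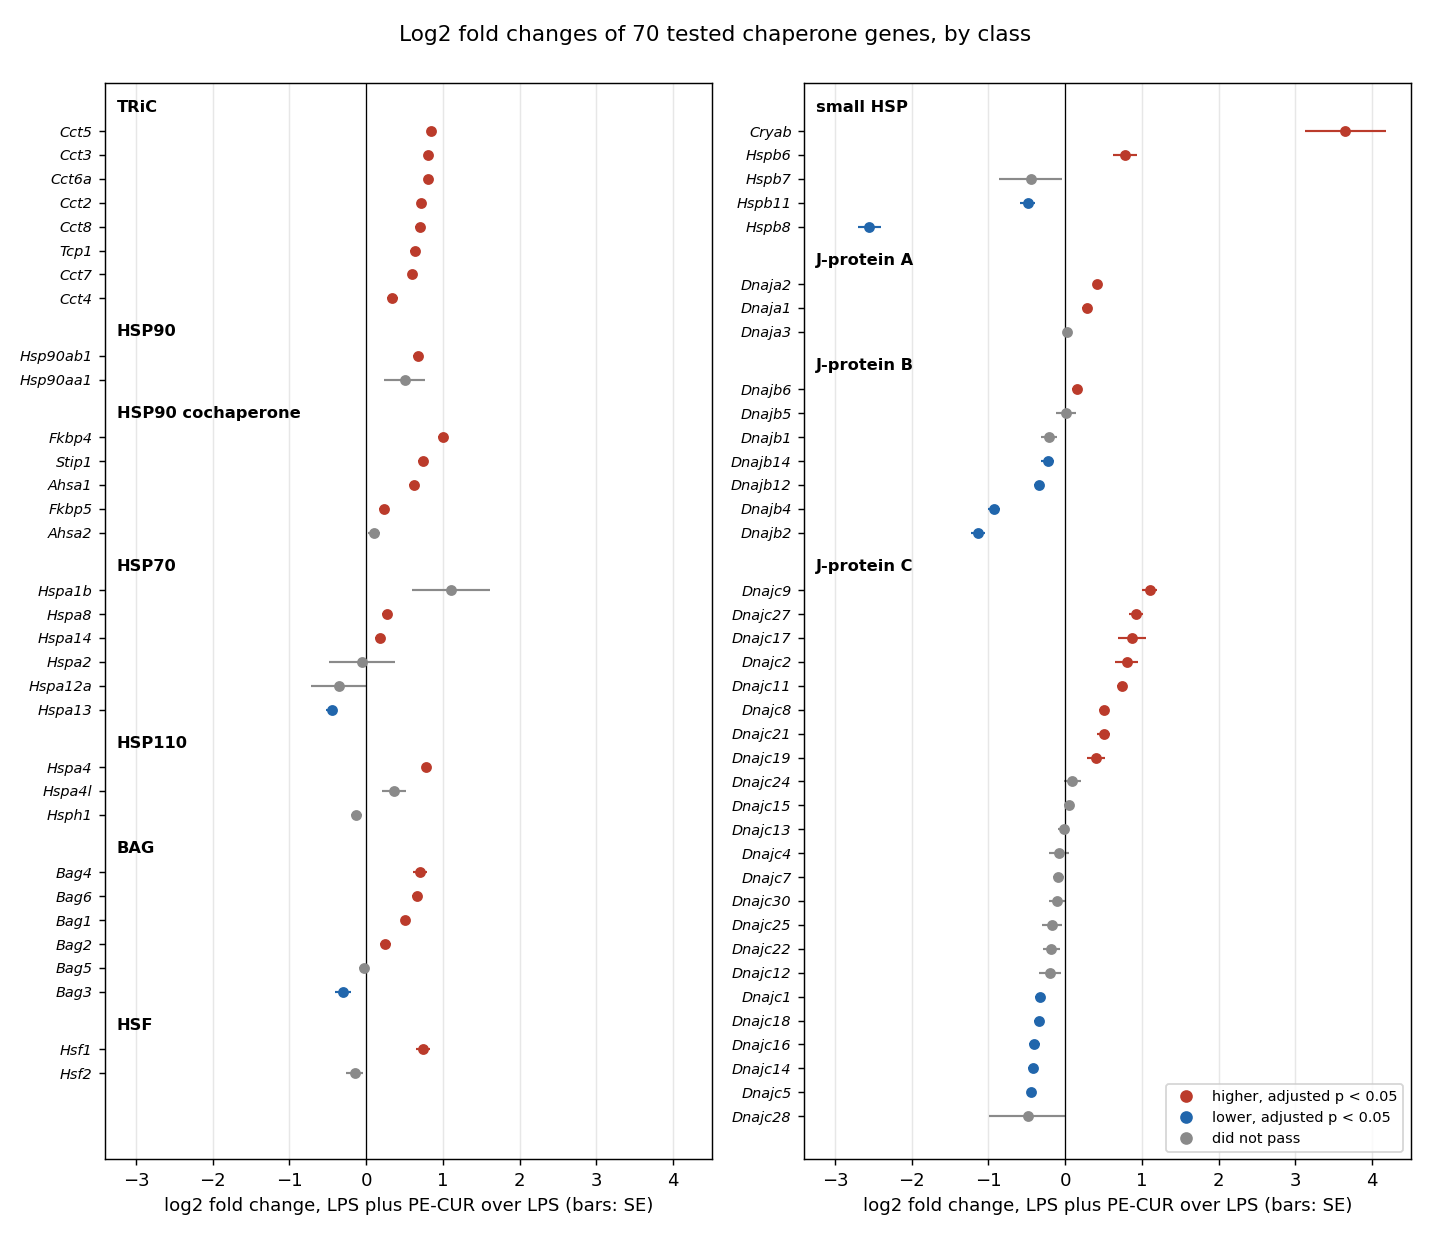
Log2 fold change of each of the 70 tested chaperone genes (points, LPS plus PE-CUR over LPS, bars are SE of the edgeR fit, 3 libraries per group), grouped by class and coloured by the call at an adjusted p under 0.05. All 8 tested TRiC genes lie between 0.34 and 0.84, Cryab at 3.65 and Hspb8 at -2.55 lie farthest out, and the J-protein genes lie on both sides of 0.

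The clearest group was TRiC, the chaperonin whose rings each hold 1 copy of 8 different subunits. All 8 subunit genes of somatic cells rose, with log2 fold changes from 0.34 to 0.84. Cct6b, a copy of Cct6a known from testis, had 1, 4 and 4 counts in the LPS plus PE-CUR libraries and 5, 2 and 7 counts in the LPS libraries and was not tested. Cct5 (chromosome 15, 31590800 to 31601846; gene positions are RefSeq's on GRCm38.p6, the build also called mm10) had 448, 451 and 464 CPM in LPS plus PE-CUR, against 255, 264 and 245 CPM in LPS. Every LPS plus PE-CUR library lay above every LPS library, which holds for each of the 8 subunits (edgeR log2 fold change 0.84 ± 0.05 SE, adjusted p = 3.64e-07). Cct3 (chromosome 3, 88297135 to 88321766) stood at 563, 545 and 568 CPM in LPS plus PE-CUR, against 329, 325 and 299.7 CPM in LPS (edgeR log2 fold change 0.81 ± 0.06 SE, adjusted p = 5.92e-07). Most of the other subunits moved by similar amounts. Cct6a (chromosome 5, 129787356 to 129846443) had 412, 430.4 and 456 CPM in LPS plus PE-CUR, against 250.1, 258 and 230.1 CPM in LPS (edgeR log2 fold change 0.81 ± 0.06 SE, adjusted p = 1.22e-06). Cct2 (chromosome 10, 117050997 to 117063852) had the highest level per length of the 8, and it had 664, 665 and 681 CPM in LPS plus PE-CUR, against 418, 415 and 397 CPM in LPS (edgeR log2 fold change 0.71 ± 0.05 SE, adjusted p = 8.09e-07). Cct8 (chromosome 16, 87483325 to 87495869) had 391, 457 and 443 CPM in LPS plus PE-CUR, against 274, 262 and 259 CPM in LPS, a fold of 1.62. Tcp1, the founding subunit (chromosome 17, 12916329 to 12925067), lay a little lower in fold, at 1.54, with 459.6, 536 and 515 CPM in LPS plus PE-CUR, against 332, 329 and 317 CPM in LPS (edgeR log2 fold change 0.63 ± 0.06 SE, adjusted p = 9.42e-06). Cct7 (chromosome 6, 85451505 to 85468477) had 459, 444 and 474 CPM in LPS plus PE-CUR, against 293, 315 and 299 CPM in LPS (edgeR log2 fold change 0.60 ± 0.05 SE, adjusted p = 3.89e-06).

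Cct4 (chromosome 11, 22990593 to 23003336) rose least, with 315, 364 and 347 CPM in LPS plus PE-CUR, against 287, 257 and 265 CPM in LPS (edgeR log2 fold change 0.34 ± 0.07 SE, adjusted p = 0.00103). Its groups still did not overlap. Per length, Cct4 was at 0.864, 0.920 and 0.875 times the median of the 8 subunits in LPS plus PE-CUR replicates 1 to 3 and at 1.16, 1.01 and 1.08 times that median in LPS replicates 1 to 3. Cct5 moved the other way, at 1.13, 1.05 and 1.08 times the median in LPS plus PE-CUR and 0.948, 0.954 and 0.924 times in LPS, and Cct6a was at 0.965, 0.929 and 0.980 times in LPS plus PE-CUR and 0.862, 0.866 and 0.803 times in LPS. Cct2 and Cct3 led in all 6 libraries. The highest subunit had 1.66 to 1.87 times the FPKM of the lowest in the LPS plus PE-CUR libraries and 1.71 to 1.79 times in the LPS libraries. The median FPKM of the 8 subunits was 187, 194 and 196 in the LPS plus PE-CUR libraries and 128, 131 and 128 in the LPS libraries. Cct6a, Cct7, Cct8 and Tcp1 each overlap an annotated gene on the opposite strand (Psph, Pradc1, Usp16 and, for Tcp1, Mrpl18 and Acat3), and whether counting used strand is not given in the sources used here.

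**Figure D2:**
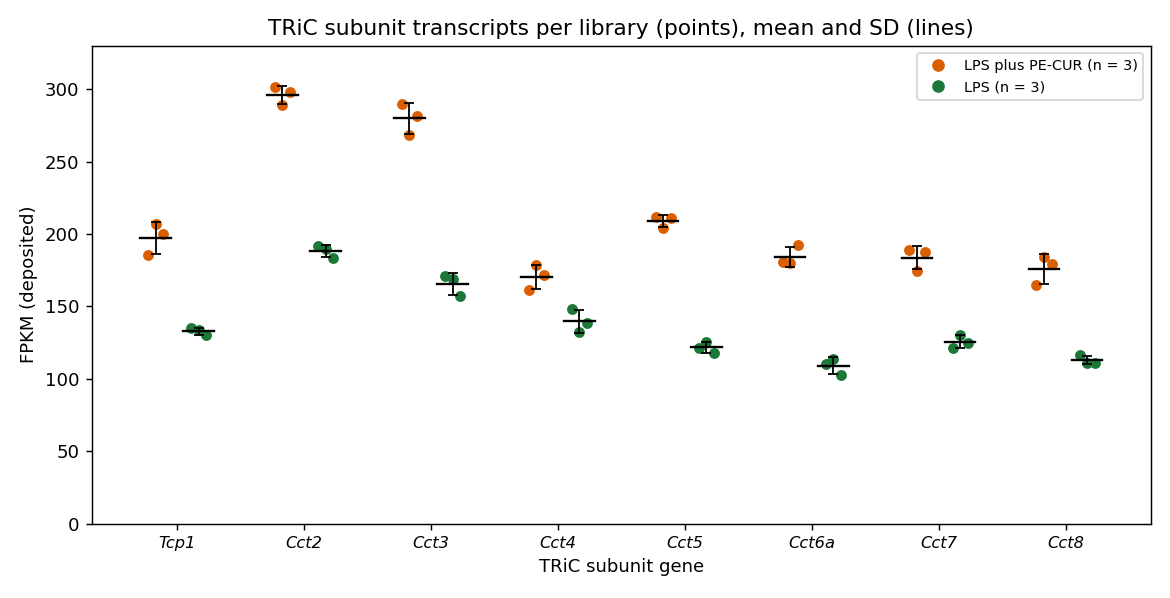
Deposited FPKM (y axis, from 0) of the 8 TRiC subunit genes in each library (points), with mean and SD as lines, LPS plus PE-CUR left of LPS for each gene. No gene has an LPS plus PE-CUR library at or below an LPS library; the gap is narrowest for Cct4, whose means are 170.5 FPKM in LPS plus PE-CUR and 139.7 FPKM in LPS.

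Partners and clients of TRiC gave a mixed picture. Prefoldin hands unfolded actin and tubulin to TRiC, and phosducin-like proteins and tubulin cofactors act with or after it. Of 14 such genes tested, 7 were higher (50%), 1 lower (7.14%) and 6 did not pass, beside 30.8% higher and 32.7% lower of all tested genes. With libraries scaled by their totals alone, 3 were higher and 1 lower, and without LPS plus PE-CUR replicate 3 or LPS replicate 3, 4 were higher. Pfdn2, a prefoldin subunit, averaged 97.4 ± 1.65 CPM in LPS plus PE-CUR and 62.8 ± 1.28 CPM in LPS (mean ± SD, n = 3 each; edgeR log2 fold change 0.63 ± 0.06 SE, adjusted p = 3.16e-06), whereas Tbcb, a cofactor of alpha-tubulin, was lower at 35.8 CPM in LPS plus PE-CUR and 42.9 CPM in LPS (edgeR log2 fold change -0.26 ± 0.07 SE, adjusted p = 0.00852). The call of Tbcb ended without LPS plus PE-CUR replicate 2, LPS replicate 2 or LPS replicate 3, each of which left 0 of the 14 lower. Of 12 actin and tubulin genes tested, 8 were higher (66.7%), 2 lower (16.7%) and 2 did not pass, beside the same shares of all tested genes. Tuba1b, an alpha-tubulin, had 392, 382 and 437 CPM in LPS plus PE-CUR, against 133, 141 and 109 CPM in LPS (edgeR log2 fold change 1.66 ± 0.10 SE, adjusted p = 1.02e-06). Tubb5, the main beta-tubulin of dividing cells, stood at 908 CPM in LPS plus PE-CUR and 320.4 CPM in LPS (edgeR log2 fold change 1.50 ± 0.09 SE, adjusted p = 9.66e-07). Lower were Tubb2a (8.09 CPM in LPS plus PE-CUR and 15.0 CPM in LPS) and Tubb2b (6.99 CPM in LPS plus PE-CUR and 15.3 CPM in LPS).

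HSP90 has a constitutive and an inducible cytosolic form. Hsp90ab1, the constitutive form (chromosome 17, 45567778 to 45573261), had the highest FPKM of all members, 839.6, 735 and 771 FPKM in LPS plus PE-CUR, against 506, 534 and 490.4 FPKM in LPS. Unscaled by length, it had 2089, 1911 and 1993 CPM in LPS plus PE-CUR, against 1248, 1319 and 1199 CPM in LPS. The groups were well apart (edgeR log2 fold change 0.67 ± 0.06 SE, adjusted p = 4.14e-06). Hsp90aa1, the inducible form (chromosome 12, 110691036 to 110696395), had 461, 853 and 608 CPM in LPS plus PE-CUR, against 531, 412 and 413 CPM in LPS. Its groups overlapped, with LPS plus PE-CUR replicate 2 high and LPS plus PE-CUR replicate 1 between the LPS libraries, and it did not pass (edgeR log2 fold change 0.50 ± 0.27 SE, adjusted p = 0.168). It was called higher once LPS plus PE-CUR replicate 1 was left out (edgeR log2 fold change 0.72, adjusted p = 0.0422). Leaving out replicate 2 of that group gave 0.28. The FPKM of Hsp90ab1 was 5.16, 2.55 and 3.73 times that of Hsp90aa1 in LPS plus PE-CUR replicates 1 to 3 and 2.67, 3.64 and 3.30 times in LPS replicates 1 to 3.

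Of the 5 HSP90 cochaperones in the set, 4 rose (80%, beside 30.8% of all tested genes). Fkbp4, an immunophilin that works with HSP90 on steroid receptors (chromosome 6, 128430103 to 128438656), had 257, 247 and 275 CPM in LPS plus PE-CUR, against 132, 137 and 121 CPM in LPS, a doubling (edgeR log2 fold change 1.0 ± 0.07 SE, adjusted p = 4.82e-07). Stip1, the adaptor that joins HSP70 to HSP90 (chromosome 19, 7020696 to 7040026), had 232, 227 and 241 CPM in LPS plus PE-CUR, against 136, 148 and 134 CPM in LPS (edgeR log2 fold change 0.74 ± 0.06 SE, adjusted p = 1.47e-06). Both genes were higher in every LPS plus PE-CUR library than in any LPS library. Ahsa1, which speeds the ATP hydrolysis of HSP90, stood at 148, 148 and 159 CPM in LPS plus PE-CUR, against 98.2, 101 and 97.4 CPM in LPS (edgeR log2 fold change 0.62 ± 0.06 SE, adjusted p = 4.27e-06). Fkbp5, a counterpart of Fkbp4 known as a glucocorticoid target, rose least, with 144, 142 and 156 CPM in LPS plus PE-CUR, against 127, 132 and 118 CPM in LPS (edgeR log2 fold change 0.23 ± 0.06 SE, adjusted p = 0.00934), and its call ended in limma on log2(FPKM + 1) without a filter (adjusted p = 0.0797). Ahsa2, a relative of Ahsa1, had 31.9 CPM in LPS plus PE-CUR and 29.7 CPM in LPS and did not pass (edgeR log2 fold change 0.10 ± 0.08 SE, adjusted p = 0.274).

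Cochaperones of HSP90 outside the set were looked up as a list of 20. Of these 13 were higher (65%), 2 lower (10%) and 5 did not pass, beside 30.8% higher and 32.7% lower of all tested genes. Ruvbl2 and Ruvbl1, ATPases that work with HSP90 in the assembly of large complexes, both rose. Ruvbl2 averaged 128 ± 7.15 CPM in LPS plus PE-CUR and 52.1 ± 1.83 CPM in LPS (mean ± SD, n = 3 each; edgeR log2 fold change 1.29 ± 0.06 SE, adjusted p = 9.82e-08). Ruvbl1 averaged 85.4 ± 2.73 CPM in LPS plus PE-CUR and 40.5 ± 2.91 CPM in LPS (mean ± SD, n = 3 each; edgeR log2 fold change 1.08 ± 0.07 SE, adjusted p = 4.15e-07). Ptges3, the cochaperone p23, stood at 247 CPM in LPS plus PE-CUR and 138 CPM in LPS (edgeR log2 fold change 0.84 ± 0.06 SE, adjusted p = 4.98e-07). Lower were Sugt1 (67.7 CPM in LPS plus PE-CUR and 84.7 CPM in LPS) and Unc45a (28.2 CPM in LPS plus PE-CUR and 36.3 CPM in LPS), a myosin chaperone.

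Among HSP70 genes the constitutive form was by far the most abundant in CPM. Hspa8 (chromosome 9, 40801276 to 40805202) had 1024, 1041 and 1084 CPM in LPS plus PE-CUR, against 831, 941 and 841 CPM in LPS. The groups did not overlap, but the difference was small, a fold of 1.21 (edgeR log2 fold change 0.27 ± 0.06 SE, adjusted p = 0.00307). Hspa14, which works at the ribosome, had 74.2, 77.9 and 82.3 CPM in LPS plus PE-CUR, against 67.0, 70.6 and 69.8 CPM in LPS (edgeR log2 fold change 0.18 ± 0.06 SE, adjusted p = 0.0291). That call ended in 7 of 16 alternatives, among them scaling by library totals (log2 fold change 0.12, adjusted p = 0.124). Hspa13, a microsomal member, was lower, with 56.7, 64.8 and 61.9 CPM in LPS plus PE-CUR, against 84.2, 79.5 and 86.2 CPM in LPS (edgeR log2 fold change -0.45 ± 0.07 SE, adjusted p = 0.000182). Hspa2 and Hspa12a reached at most 1.16 CPM in any library and did not pass, and Hspa1l had at most 4 counts in any library and was not tested.

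The heat-inducible pair Hspa1a and Hspa1b had few reads. Hspa1b had 348, 130 and 88 counts in the LPS plus PE-CUR libraries and 102, 80 and 96 counts in the LPS libraries, which is 10.7, 3.83 and 3.18 CPM in LPS plus PE-CUR, against 3.13, 2.44 and 2.65 CPM in LPS. After scaling every LPS plus PE-CUR library was above the LPS libraries, by a narrow margin in replicate 3, and only replicate 1 stood far above. Hspa1b did not pass (edgeR log2 fold change 1.11 ± 0.51 SE, adjusted p = 0.111), and without that replicate the log2 fold change was 0.38 (edgeR adjusted p = 0.130). It was called in 3 of 16 alternatives, among them edgeR with LPS plus PE-CUR replicate 3 left out (adjusted p = 0.0432, log2 fold change 1.43) and DESeq2 (log2 fold change 1.13, adjusted p = 0.00395). Hspa1a had 2, 0 and 1 counts in the LPS plus PE-CUR libraries and 0 in each LPS library, where 3 counts would be 0.0850 to 0.0937 CPM. The reading frames of the 2 genes are identical at 98.1% of 1926 aligned bases in the GENCODE M21 transcripts, so the authors' counting may have dropped or split their reads, and the values of both are uncertain.

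The HSP110 proteins exchange the nucleotide of HSP70 and pull clumped proteins apart together with it. Hspa4 (chromosome 11, 53259814 to 53300479) had 600.2, 574 and 578 CPM in LPS plus PE-CUR, against 342, 351 and 329 CPM in LPS (edgeR log2 fold change 0.78 ± 0.05 SE, adjusted p = 5.5e-07), with the groups far apart. Hspa4l had 301, 273 and 223 CPM in LPS plus PE-CUR, against 248, 179.6 and 196 CPM in LPS. Its values overlapped and it did not pass (edgeR log2 fold change 0.36 ± 0.16 SE, adjusted p = 0.102), though it was called higher in 5 of 16 alternatives, among them DESeq2 (adjusted p = 0.00555) and the fits without LPS plus PE-CUR replicate 3 (edgeR adjusted p = 0.0298) or LPS replicate 1 (0.00952). Hsph1, the heat-inducible HSP110, had 283, 244 and 239 CPM in LPS plus PE-CUR, against 301, 273 and 268 CPM in LPS, overlapped and did not pass (edgeR log2 fold change -0.13 ± 0.07 SE, adjusted p = 0.144). It passed as lower once LPS plus PE-CUR replicate 1 was left out (edgeR log2 fold change -0.19, adjusted p = 0.0286). The FPKM of Hspa4 was thus 2.93, 3.25 and 3.34 times that of Hsph1 in the LPS plus PE-CUR libraries and 1.57, 1.77 and 1.70 times in the LPS libraries.

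BAG proteins release nucleotide from HSP70 and steer its clients. Of 6 tested, 4 rose (66.7%, beside 30.8% of all tested genes) and 1 fell (16.7%, beside 32.7%). Bag6, which guards newly made membrane proteins, had 212, 191 and 202 CPM in LPS plus PE-CUR, against 122, 135 and 125 CPM in LPS (edgeR log2 fold change 0.66 ± 0.06 SE, adjusted p = 5.49e-06). Bag4 had 30.2, 32.5 and 29.5 CPM in LPS plus PE-CUR, against 18.4, 17.5 and 20.9 CPM in LPS (edgeR log2 fold change 0.70 ± 0.09 SE, adjusted p = 4.11e-05), and Bag1, which links HSP70 to the proteasome, had 134, 131 and 134 CPM in LPS plus PE-CUR, against 88.0, 99.1 and 92.8 CPM in LPS (edgeR log2 fold change 0.51 ± 0.06 SE, adjusted p = 2.69e-05). None of these 3 overlapped between the groups. Bag2, an inhibitor of the ubiquitin ligase CHIP, had 33.8, 33.0 and 33.0 CPM in LPS plus PE-CUR, against 27.9, 28.5 and 27.6 CPM in LPS (edgeR log2 fold change 0.25 ± 0.07 SE, adjusted p = 0.00714), and Bag5 averaged 33.2 CPM in LPS plus PE-CUR and 33.9 CPM in LPS and did not pass. Bag3, the stress-inducible member that passes clients to autophagy, was lower, with 40.8, 34.4 and 36.9 CPM in LPS plus PE-CUR, against 39.7, 49.9 and 48.5 CPM in LPS (edgeR log2 fold change -0.30 ± 0.10 SE, adjusted p = 0.0202). Its groups overlapped, and the call ended in 6 of 16 alternatives. It ended without LPS plus PE-CUR replicate 2 or 3 (edgeR adjusted p = 0.129 and 0.0746) and without LPS replicate 2 or 3 (0.149 and 0.127).

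Small heat shock proteins held both extremes of the set. Cryab, alpha B-crystallin, known from the lens and muscle (chromosome 9, 50745951 to 50756636), had 952, 428 and 303 counts in the LPS plus PE-CUR libraries and 58, 38 and 46 counts in the LPS libraries, or 29.3, 12.6 and 10.9 CPM in LPS plus PE-CUR, against 1.78, 1.16 and 1.27 CPM in LPS. Replicate 1 stood well above the other LPS plus PE-CUR libraries, and all 3 were above every LPS library, by a fold of 12.6 in the fit (edgeR log2 fold change 3.65 ± 0.53 SE, adjusted p = 0.00229). Without that replicate the log2 fold change was 3.10 (edgeR adjusted p = 4.88e-08). The summed muscle markers, given above, were lower in all LPS plus PE-CUR libraries than in the LPS libraries. The FPKM of Cryab stayed moderate, at 8.56 ± 5.15 in LPS plus PE-CUR and 0.702 ± 0.166 in LPS (mean ± SD, n = 3 each). Hspb2 (chromosome 9, 50751072 to 50752354), which overlaps Cryab on the opposite strand in the annotation, had 11, 2 and 0 counts in the LPS plus PE-CUR libraries and 0 in each LPS library. Reads of the pair cannot be told apart with certainty.

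Hspb8, the small heat shock protein that works with BAG3 in handing misfolded clients to autophagy (chromosome 5, 116408491 to 116422864), went the other way. It had 3.39, 3.18 and 2.31 CPM in LPS plus PE-CUR, against 17.8, 15.8 and 18.6 CPM in LPS, 5.85-fold lower in LPS plus PE-CUR with no overlap (edgeR log2 fold change -2.55 ± 0.15 SE, adjusted p = 2.4e-07). Hspb6 had 6.002, 5.15 and 5.71 CPM in LPS plus PE-CUR, against 3.16, 3.62 and 3.04 CPM in LPS (edgeR log2 fold change 0.78 ± 0.16 SE, adjusted p = 0.00123), and it overlaps Proser3 and Lin37 on the opposite strand. Proser3 was also higher (5.17 CPM in LPS plus PE-CUR and 2.46 CPM in LPS, log2 fold change 1.07, edgeR adjusted p = 0.00112), and the 2 cannot be told apart. Hspb11, which despite its name is a part of the transport machinery of cilia, was lower, with 10.9, 13.4 and 13.0 CPM in LPS plus PE-CUR, against 17.7, 17.1 and 17.7 CPM in LPS (edgeR log2 fold change -0.49 ± 0.10 SE, adjusted p = 0.00138). Hspb7 did not pass, at no more than 0.774 CPM in any library, and Hspb9 had at most 1 count in any library. Hspb1 (HSP27) had 0, 0 and 1 counts in the LPS plus PE-CUR libraries and 0 in each LPS library, and neither was tested.

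**Figure D3:**
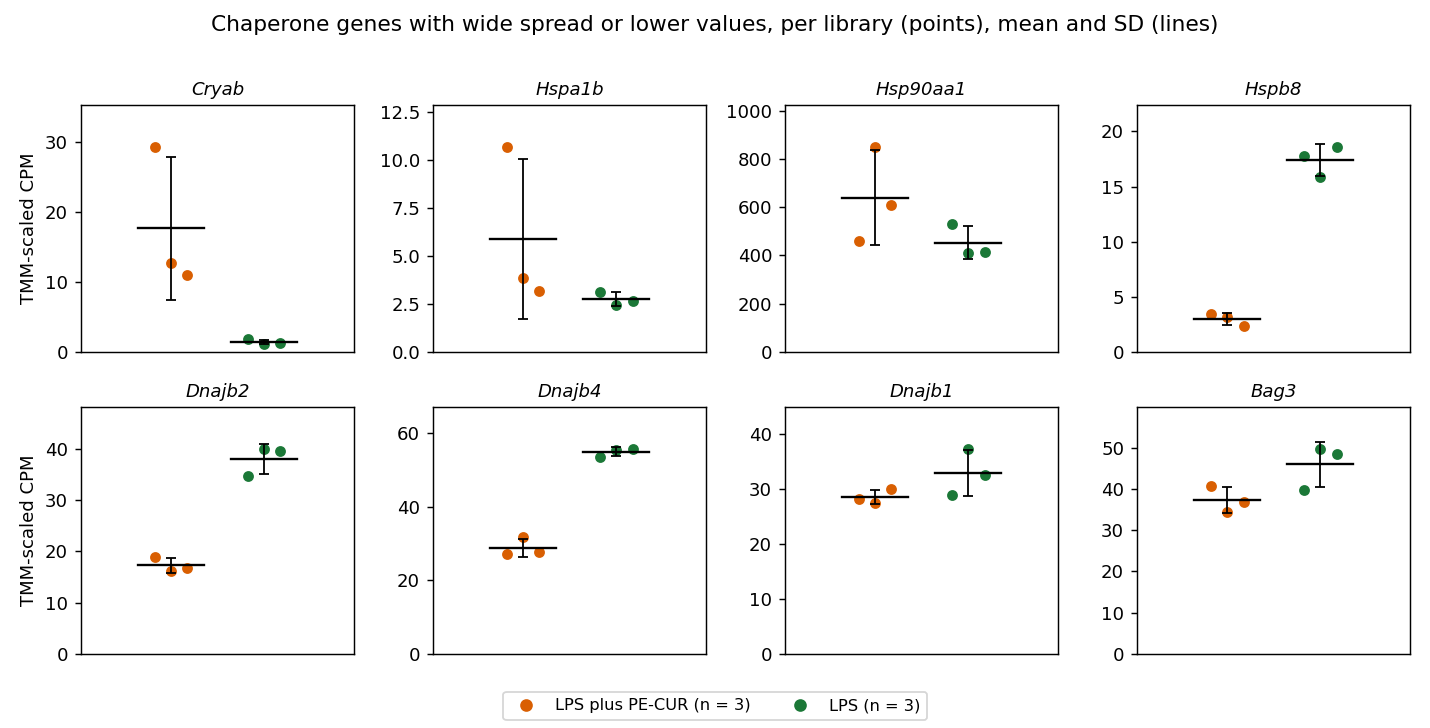
TMM-scaled CPM (y axes, each from 0) of 8 chaperone genes in each library (points), with mean and SD as lines, LPS plus PE-CUR left of LPS. Cryab and Hspa1b each have 1 LPS plus PE-CUR library far above the other 2 and Hsp90aa1 has its 3 spread widely, whereas Hspb8, Dnajb2 and Dnajb4 are lower in all 3 LPS plus PE-CUR libraries than in any LPS library.

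J-proteins, the partners that choose the clients of HSP70, made up 35 of the 78 genes. Of 33 tested, 11 rose, 9 fell and 13 did not pass, shares of 33.3% and 27.3% beside the 30.8% and 32.7% of all tested genes. Within class A, the general partners of cytosolic HSP70, Dnaja2 had 218, 222 and 230.4 CPM in LPS plus PE-CUR, against 167, 168 and 168 CPM in LPS (edgeR log2 fold change 0.41 ± 0.05 SE, adjusted p = 4.21e-05). Dnaja1 had 146, 166 and 152 CPM in LPS plus PE-CUR, against 127, 127 and 127 CPM in LPS (edgeR log2 fold change 0.28 ± 0.06 SE, adjusted p = 0.00195). Neither overlapped between the groups. Dnaja1 lies over part of Smu1 on the opposite strand. Smu1 was higher too (99.8 CPM in LPS plus PE-CUR and 74.7 CPM in LPS, log2 fold change 0.42, edgeR adjusted p = 0.00104). Dnaja3, the mitochondrial form, averaged 87.5 CPM in LPS plus PE-CUR and 85.8 CPM in LPS and did not pass, and Dnaja4 had at most 4 counts and was not tested.

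In class B, 4 of 7 were lower (57.1%, beside 32.7% of all tested genes) and 1 higher (14.3%, beside 30.8%). Dnajb2, whose protein carries ubiquitinated clients to the proteasome (chromosome 1, 75236395 to 75245692), had 19.0, 16.1 and 16.7 CPM in LPS plus PE-CUR, against 34.7, 40.1 and 39.6 CPM in LPS, 2.21-fold lower in LPS plus PE-CUR (edgeR log2 fold change -1.14 ± 0.09 SE, adjusted p = 1.44e-06). Dnajb4 (chromosome 3, 152181580 to 152210432), a close relative of Dnajb1, had 27.2, 31.7 and 27.7 CPM in LPS plus PE-CUR, against 53.7, 55.4 and 55.8 CPM in LPS (edgeR log2 fold change -0.93 ± 0.08 SE, adjusted p = 1.8e-06). Both genes had no overlap between the groups. Dnajb12, an ER membrane J-protein that faces the cytosol, was lower, with 37.6, 37.8 and 39.4 CPM in LPS plus PE-CUR, against 46.8, 50.3 and 48.0 CPM in LPS (edgeR log2 fold change -0.34 ± 0.07 SE, adjusted p = 0.000925). Its relative Dnajb14 had 17.9, 19.9 and 17.4 CPM in LPS plus PE-CUR, against 21.1, 20.5 and 23.1 CPM in LPS (edgeR log2 fold change -0.23 ± 0.09 SE, adjusted p = 0.0409), a call that ended in 12 of 16 alternatives, among them DESeq2 (adjusted p = 0.0885) and leaving out any 1 library (edgeR adjusted p from 0.0523 to 0.270). Dnajb6, known for holding back aggregation of polyglutamine proteins, had 127, 121 and 116 CPM in LPS plus PE-CUR, against 107, 111 and 109 CPM in LPS (edgeR log2 fold change 0.15 ± 0.06 SE, adjusted p = 0.0393), and that call ended in 9 of 16 alternatives, among them scaling by library totals (log2 fold change 0.10, adjusted p = 0.219). Dnajb1, the classical heat-inducible HSP40, had 28.2, 27.4 and 30.0 CPM in LPS plus PE-CUR, against 29.0, 37.4 and 32.5 CPM in LPS, overlapped and did not pass (edgeR log2 fold change -0.21 ± 0.10 SE, adjusted p = 0.0803), but was called lower in 4 of 16 alternatives, among them scaling by library totals (log2 fold change -0.26, adjusted p = 0.0318) and the fit without LPS replicate 1 (edgeR adjusted p = 0.0400). Dnajb5 averaged 7.67 CPM in LPS plus PE-CUR and 7.60 CPM in LPS and did not pass.

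Class C proteins share only the J-domain and serve many places in the cell. Of 23 tested, 8 rose (34.8%, beside 30.8% of all tested genes), 5 fell (21.7%, beside 32.7%) and 10 did not pass. Highest in fold was Dnajc9, a chaperone of histones H3 and H4 (chromosome 14, 20384638 to 20388910), with 45.3, 50.2 and 54.7 CPM in LPS plus PE-CUR, against 21.7, 26.1 and 21.9 CPM in LPS (edgeR log2 fold change 1.10 ± 0.10 SE, adjusted p = 2.87e-06). Dnajc27 had 23.2, 21.9 and 24.2 CPM in LPS plus PE-CUR, against 12.04, 13.3 and 11.4 CPM in LPS (edgeR log2 fold change 0.92 ± 0.09 SE, adjusted p = 7.73e-06). Dnajc2, which sits on the ribosome with Hspa14 and meets chains as they are made, had 96.6, 139.8 and 115 CPM in LPS plus PE-CUR, against 75.6, 62.4 and 63.3 CPM in LPS (edgeR log2 fold change 0.80 ± 0.15 SE, adjusted p = 0.00286). LPS plus PE-CUR replicate 2 was highest for Dnajc2, as it was for Hsp90aa1, yet no LPS library reached the lowest of the 3. Dnajc17, a splicing-related member, had 7.94, 7.57 and 5.31 CPM in LPS plus PE-CUR, against 3.47, 3.96 and 3.95 CPM in LPS (edgeR log2 fold change 0.87 ± 0.18 SE, adjusted p = 0.0013), and overlaps Zfyve19 on the opposite strand. Also higher were Dnajc11 of the mitochondrial outer membrane (log2 fold change 0.74), the spliceosome protein Dnajc8 (0.50), Dnajc21 of ribosome assembly (0.50) and Dnajc19 of mitochondria (0.40). The call of Dnajc19 ended in limma on log2(FPKM + 1) without a filter (adjusted p = 0.0772). Dnajc19 also overlaps Fxr1 on the opposite strand. Fxr1 was higher too (162 CPM in LPS plus PE-CUR and 133 CPM in LPS, log2 fold change 0.28, edgeR adjusted p = 0.0262).

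The 5 class C genes that fell had log2 fold changes between -0.44 and -0.33. Dnajc5, the cysteine string protein of secretory vesicles, had 114, 118 and 115 CPM in LPS plus PE-CUR, against 154, 161 and 155 CPM in LPS (edgeR log2 fold change -0.44 ± 0.05 SE, adjusted p = 3.71e-05). Dnajc14 had 57.7, 53.3 and 59.0 CPM in LPS plus PE-CUR, against 73.1, 75.1 and 78.9 CPM in LPS. Dnajc16 had 34.3, 32.1 and 31.7 CPM in LPS plus PE-CUR, against 42.3, 44.5 and 42.7 CPM in LPS. Replicates lay close together in these genes. Dnajc18 had 28.2, 27.4 and 27.8 CPM in LPS plus PE-CUR, against 36.0, 33.7 and 35.9 CPM in LPS, and Dnajc1, an ER membrane protein, averaged 42.6 CPM in LPS plus PE-CUR and 53.5 CPM in LPS. For these 4 the log2 fold changes lay between -0.42 and -0.33, and in none of the 5 did the groups overlap. Dnajc13, an endosomal member also called RME-8, and Dnajc7, which binds both HSP70 and HSP90, were well expressed and did not pass, with log2 fold changes of -0.02 and -0.09. The other 8 that did not pass (Dnajc4, Dnajc12, Dnajc15, Dnajc22, Dnajc24, Dnajc25, Dnajc28 and Dnajc30) lay between -0.49 and 0.09. Dnajc6, auxilin of neurons, had at most 4 counts in any library and was not tested.

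The regulator Hsf1 (chromosome 15, 76477362 to 76501155) had 41.6, 36.0 and 34.6 CPM in LPS plus PE-CUR, against 23.9, 22.5 and 20.6 CPM in LPS, with no overlap (edgeR log2 fold change 0.74 ± 0.09 SE, adjusted p = 3.38e-05). Hsf2 had 27.4, 33.9 and 26.3 CPM in LPS plus PE-CUR, against 36.7, 29.6 and 30.9 CPM in LPS, overlapped and did not pass (edgeR log2 fold change -0.15 ± 0.11 SE, adjusted p = 0.285). Of 17 members listed as heat-inducible, 15 were tested, and 7 were higher, 3 lower and 5 did not pass (66.7% in either direction, beside 63.4% of all tested genes, and 46.7% higher, beside 30.8%). Higher were Hspa8 and Hsp90ab1, both called constitutive above, and Dnaja1, Cryab, Stip1, Ahsa1 and Fkbp4. As the list holds constitutive forms, its share is not that of inducible genes alone. Lower were Hspb8, Dnajb4 and Bag3, and Hspa1b, Hsph1, Hsp90aa1, Dnajb1 and Hspa4l did not pass. The 5 that did not pass differed in direction, with log2 fold changes of 1.11 for Hspa1b, 0.50 for Hsp90aa1, 0.36 for Hspa4l, -0.13 for Hsph1 and -0.21 for Dnajb1.

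Promoter sequences were taken from RefSeq (GRCm38.p6), which held an entry for 62 of the 78 genes, and were searched on both strands for the heat shock element. Hsp90aa1, Hsp90ab1, Hspa8, Cryab and Hsf1 were among the members without an entry. In the window from 250 bases before to 50 after the start, 3 adjoining units (GAANNTTCNNGAA or TTCNNGAANNTTC) were found in 2 of the 62 members, Dnajb6 and Hsph1, and in 0.662% of all 27025 genes with an entry. A pair of units (GAANNTTC or TTCNNGAA, which every run of 3 units also holds) was found in 16 of the 62 members (25.8%) and in 17% of all genes with an entry. By call, a pair of units was present in 8 of 26 members that were higher, 3 of 10 that were lower and 2 of 19 that did not pass. Among all tested genes with an entry, 14.2% had such a pair. The stretches below are shown because they carry the element before the annotated start of genes that rose (Cct5, Fkbp4, Dnaja1, Dnajb6), of Hspa1b, which did not pass, and of Hspb1, which was at most 1 count. They run 5′ to 3′ in the direction of the gene over 60 bases, and capitals mark the element.
Cct5 (chr15:31601847-31601906, minus strand): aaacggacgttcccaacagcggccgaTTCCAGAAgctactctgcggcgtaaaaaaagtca
Fkbp4 (chr6:128438774-128438833, minus strand): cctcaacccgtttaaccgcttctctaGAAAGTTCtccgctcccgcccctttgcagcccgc
Dnaja1 (chr4:40722318-40722377, plus strand): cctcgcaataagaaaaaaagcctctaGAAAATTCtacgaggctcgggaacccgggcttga
Dnajb6 (chr5:29735829-29735888, plus strand): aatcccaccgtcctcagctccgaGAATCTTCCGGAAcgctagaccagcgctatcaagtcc
Hspa1b (chr17:34959309-34959368, minus strand): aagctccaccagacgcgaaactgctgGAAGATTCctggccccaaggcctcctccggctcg
Hspb1 (chr5:135887796-135887855, plus strand): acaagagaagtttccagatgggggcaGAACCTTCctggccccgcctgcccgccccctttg
Hspa1a has the same 60 bases as Hspa1b at chr17:34972227-34972286, and the 250 bases before the starts of these neighbours are identical at 98.8%. The element begins 34 bases before the start in Cct5, 46 in Dnajb6, 97 in Hspb1, 104 in Hspa1b, 124 in Dnaja1 and 151 in Fkbp4, and Hspb1 holds a further match, in lower case above, 117 bases before its start. A match describes letters only, and the searched window held a pair of units in genes that were higher, lower, did not pass or had almost no reads. Of the lower genes, Hspb8 and Bag3 held it 2 and 42 bases after the start. Dnajb4 held it 14 bases before a start that lies within its annotated span.

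Spread between replicates was low for most members and wide for a few. Over the 64 tested members that averaged 5 CPM or more over the 6 libraries, the median coefficient of variation was 5.44% in LPS plus PE-CUR and 5.10% in LPS. Widest in LPS plus PE-CUR among these 64 were Cryab, at 57.6% in LPS plus PE-CUR and 23.7% in LPS, and Hsp90aa1, at 30.9% in LPS plus PE-CUR and 15.2% in LPS. No single library led throughout: LPS plus PE-CUR replicates 1, 2 and 3 were the highest of their group for 20, 20 and 24 of these members. Of the 34 members called higher, 30 kept their call and direction in all 16 alternatives, and of the 13 called lower, 11 did. Of the 47 called members, 24 overlap another gene in the GENCODE M21 annotation, so part of their reads could be counted elsewhere.

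Chaperones of other compartments were compared as lists chosen beside this set. Of 17 ER chaperones tested, 3 were higher (17.6%), 3 lower (17.6%) and 11 did not pass, beside 30.8% higher and 32.7% lower of all tested genes. Median-ratio scaling gave 7 higher and 3 lower, and removal of the 10 most abundant genes gave 10 higher and 3 lower. Leaving out LPS plus PE-CUR replicate 1 or 2 or LPS replicate 2 gave 8, 7 and 8 higher. Dnajb9, an ER J-protein induced by unfolded proteins, was lower at 21.4 ± 1.49 CPM in LPS plus PE-CUR and 53.3 ± 4.89 CPM in LPS (mean ± SD, n = 3 each; edgeR log2 fold change -1.31 ± 0.09 SE, adjusted p = 4.94e-07), as was Hspa5, the ER HSP70, at 1343 ± 110.1 CPM in LPS plus PE-CUR and 2077 ± 115 CPM in LPS (mean ± SD, n = 3 each; edgeR log2 fold change -0.63 ± 0.07 SE, adjusted p = 2.22e-05). Sdf2l1 was higher at 111 CPM in LPS plus PE-CUR and 61.6 CPM in LPS (edgeR log2 fold change 0.85 ± 0.07 SE, adjusted p = 1.37e-06). Of 12 mitochondrial chaperones and proteases, 8 were higher (66.7%), 2 lower (16.7%) and 2 did not pass, beside 30.8% higher and 32.7% lower of all tested genes. Hspd1, the mitochondrial chaperonin HSP60, had 915, 1024 and 1043 CPM in LPS plus PE-CUR, against 435, 469 and 439.7 CPM in LPS (edgeR log2 fold change 1.15 ± 0.07 SE, adjusted p = 1.93e-07), and Trap1, the mitochondrial HSP90, averaged 153 ± 2.62 CPM in LPS plus PE-CUR and 90.2 ± 2.91 CPM in LPS (mean ± SD, n = 3 each; edgeR log2 fold change 0.76 ± 0.06 SE, adjusted p = 7.82e-07). Hscb, a J-protein of iron-sulfur cluster assembly, was lower at 14.4 CPM in LPS plus PE-CUR and 19.5 CPM in LPS (edgeR log2 fold change -0.43 ± 0.10 SE, adjusted p = 0.00224). Of 9 genes listed as other partners of cytosolic HSP70, 4 were higher (Tomm70a, Hspbp1, Vcp and St13) and 2 lower (Gak and Hsbp1). The other 3 did not pass, among them Stub1, the ubiquitin ligase CHIP. Only 1 of the 9 was lower with DESeq2, or without any 1 library other than LPS replicate 1. Scaling by library totals gave 2 lower. Hsbp1 is named for binding heat shock factor, not HSP70, so the name of this list is loose. Of the 9, the 66.7% called in either direction stand beside 63.4% of all tested genes. Whether these lists differ from the cytosolic set was not tested.

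**Figure D4:**
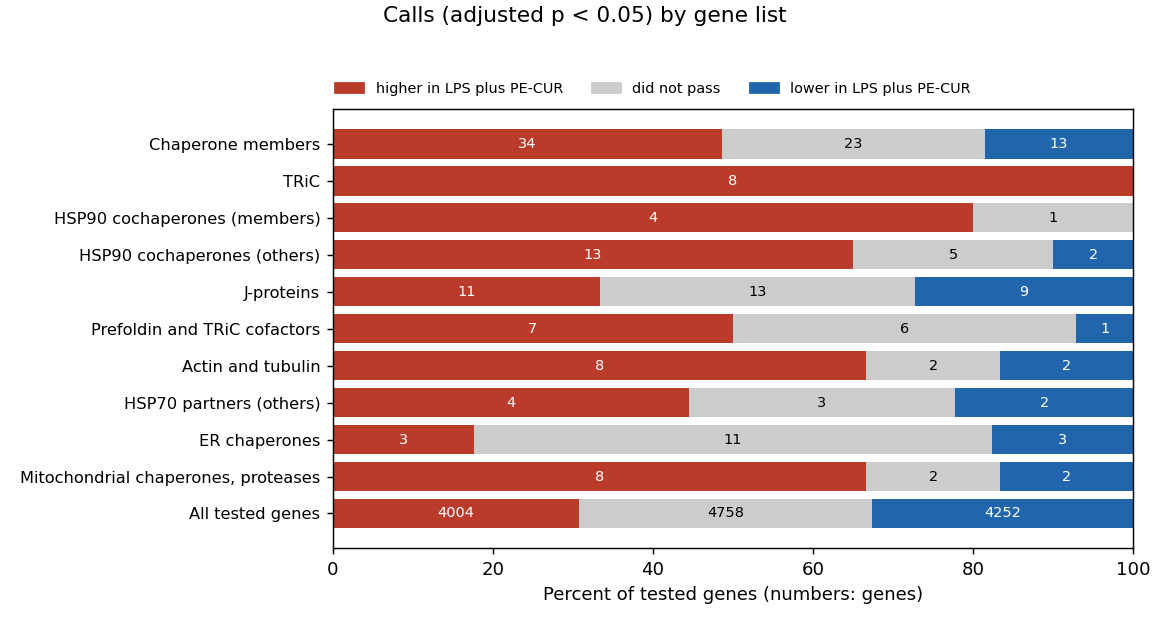
Share of tested genes (x axis, percent, numbers are genes) that were higher in LPS plus PE-CUR, did not pass, or were lower at an edgeR adjusted p under 0.05, for the chaperone set, some of its classes, related lists and all 13014 tested genes. All 8 TRiC genes and 13 of 20 HSP90 cochaperones outside the set are in the higher part, and the J-proteins are near the shares of all tested genes.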

How the data were processed

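Build mm10 and the tools DESeq2, fastp, SAMtools and HTSeq are named, per the submitters' processing notes. The aligner, gene annotation and strandedness were not given in the sources used here. The authors deposited whole-number counts per gene symbol and FPKM values. Each deposited FPKM was the count over a fixed length per gene and the library total (100% of 105337 values above 0, relative tolerance 1e-04), so FPKM adds no separate measurement. Column names equal the sample titles.

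The counts went into edgeR 4.0.16 (R 4.3.3): filterByExpr left 13014 genes, TMM factors were 0.964 to 1.03, and a robust quasi-likelihood fit used the group as its only term, with Benjamini-Hochberg adjustment and a threshold of 0.05. The SE was taken as the log2 fold change over the square root of F. Library totals were 28530750 to 35276533. On simulated data with 200 changed genes (12816 tested), the same steps called 65.7% of 67 genes set to 1.5-fold and 87.9% of 66 set to 2-fold. Many more genes were called in the data itself, 63.4% of those tested, so these shares do not measure recovery there.

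The members and lists were chosen with earlier results of these data known. Every tested member could be named. Values in every library are given for those past the threshold with the largest changes and a mean of at least 5 CPM, and for 18 standard chaperone genes whatever their result. From other lists up to 3 with the smallest p were named, and further list members were chosen after their values were seen. Coordinates are RefSeq GRCm38.p6. Alternatives were median-ratio factors, library totals, no filter, a mean of 1 CPM and DESeq2 1.42.0. Further ones were limma 3.58.1 on log2(FPKM + 1) and log2(FPKM + 0.1), a replicate block, each library left out and removal of the 10 most abundant genes. COX1 of mitochondria was among those 10, and other mitochondrial genes such as COX2 and CYTB were kept.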

Additional observations from a re-analysis of the deposited data

How the results depend on the processing

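Over the 16 alternatives, 30 to 36 chaperone genes were called higher in LPS plus PE-CUR (34 as reported) and 11 to 15 lower (13 as reported). Leaving out 1 library gave 33 to 35 higher and 11 to 13 lower. The median log2 fold change of the tested members ranged from 0.14 to 0.28 (0.20 as reported). In 11 of the 16 alternatives it moved by at least 0.0217, the SD of that median between the LPS plus PE-CUR libraries. Deviations from the group means correlated at -0.102, -0.178 and -0.048 between same-numbered samples of the groups, and at -0.052 to 0.169 between differently numbered ones. With 3 samples per group these values cannot decide whether same-numbered samples were handled together. The labels give no pairing beyond the number. A fit with the replicate block gave 34 members higher and 11 lower, and 3708 genes higher and 3953 lower of all tested, against 4004 and 4252 without it. With the block Hspa1b was called higher (log2 fold change 0.92, edgeR adjusted p = 0.0367). Changes of sign were seen only among 8 members that did not pass, each within 0.10 of 0 as reported, and the cause was not tested. Scaling by library totals gave log2 fold changes of -0.03 for Dnaja3, -0.04 for Dnajb5 and -0.01 for Dnajc15, and a filter at a mean of 1 CPM gave -0.01 for Dnaja3 and -0.02 for Dnajb5. The limma fits on FPKM gave -0.03 for Dnaja3, -0.01 for Dnajc15 and -0.03 to -0.04 for Dnajb5. Without a filter Bag5 was at 0.02, Dnajc13 at 0.03 and Hspa2 at 0.00, and with the 10 most abundant genes removed Bag5 was at 0.00 and Dnajc13 at 0.01. Leaving out 1 library gave ranges of -0.04 to 0.03 for Bag5, -0.02 to 0.12 for Dnajb5, -0.05 to 0.07 for Dnajc13, -0.14 to 0.02 for Dnajc30, -0.10 to 0.01 for Dnajc7 and -0.27 to 0.32 for Hspa2. Members under 1 CPM are limited by depth, and 8 had too few counts to be tested.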
